A study of Mus musculus with 6 samples.

Results

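The cytosolic ribosomal protein genes were examined in RNA from microdissected arcuate nucleus (ARC), the hypothalamic nucleus that holds *Kiss1*, *Pomc* and *Agrp* neurons. Members were matched by symbol alone, under a rule set with earlier results of these data known. They are the *Rpl*, *Rps* and *Rplp* genes of the cytosolic ribosome with *Rpsa* and *Fau*, without symbols of pseudogenes and without the ribosomal S6 kinases. The rule took 84 of the 24015 gene symbols counted, of which 46 encode large subunit proteins, 31 encode small subunit proteins and 7 are paralogs (*Rpl3l*, *Rpl7l1*, *Rpl10l*, *Rpl22l1*, *Rpl39l*, *Rps27l* and *Rps4l*). It left out *Rps3a1* and *Rpl36al*, among others, whose symbols it does not match although they belong to the same protein families.

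Bulk RNA was sequenced from 3 control females that carried the floxed *Esr1* allele and no Cre (Esr1fl/fl), and from 3 mutant females with the same allele and Cre driven by *Nkx2-1* (Esr1fl/fl;Nkx2-1-Cre), which removes estrogen receptor alpha. All were adults, and the labels of all 6 give a mixed background of CD-1, 129P2 and C57BL/6. *Nkx2-1* is active across the medial basal hypothalamus, so the receptor is lost outside the ARC as well. RNA was amplified before sequencing, and each sample is one library. The labels name no shared animal, litter or day, and p-values measure the spread between these 6 libraries. *Esr1* measured 64.5, 57.5 and 48.5 CPM (counts scaled to library size by TMM) in control libraries and 11.8, 9.55 and 7.06 CPM in mutant libraries (log2 fold change -2.59, standard error (SE) 0.18, edgeR adjusted p = 0.000884).

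Depth and dissection bear on what follows. Total counts on genes ranged from 11792440 to 17877137 per sample, and 3 counts equal between 0.175 and 0.248 CPM, a floor that covers counting error only. Markers of the pars tuberalis, the pituitary tissue under the ARC, summed to 8.49 CPM in control replicate 2 and to between 484 and 786 CPM in the other 5 libraries. All 8 oligodendrocyte markers were higher in every mutant library than in every control library, with sums of 648 to 1218 CPM in controls and 1568 to 1744 CPM in mutants, and microglia markers summed to 155 to 170 CPM against 208 to 212 CPM. In bulk RNA, fewer cells of a type and less RNA per cell cannot be told apart. The ARC list held 8 genes, which summed to between 760 and 820 CPM in controls and between 890 and 1356 CPM in mutants. It includes *Kiss1* and *Tac2*, which the paper places among the genes changed in mutants. Its sum therefore cannot tell dissection from genotype. Markers of the ventromedial nucleus, next to the ARC, summed to between 67.2 and 151 CPM in controls and between 68.2 and 193 CPM in mutants. The part of these differences in the ribosomal protein values was not tested, except by leaving libraries out.

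As background, the cytosolic ribosome joins a small subunit, which decodes the mRNA, to a large subunit, which forms peptide bonds, and nearly every protein of either subunit is present once per ribosome. Cells usually keep the synthesis of these proteins in step, and in vertebrates their mRNAs begin with a pyrimidine stretch, the terminal oligopyrimidine (TOP) tract, through which mTOR and LARP1 control their translation. The mouse genome holds many processed copies of ribosomal protein genes, so that a short read can match a gene and its copies alike.

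The copies can be seen in the sequence. Windows of 50 bases, the length of the single-end reads, were taken along the coding sequence of the 82 members matched in GENCODE vM1 and compared with the whole NCBIM37 assembly. The window of *Rpl4* (chr9:64024807-64024856, plus strand) had 1 other place, a copy on the minus strand at chr1:144990529-144990578, which differs at 2 bases, and is shown as the case with no exact match elsewhere. Those of *Rpl11* (chr4:135607168-135607217, minus strand) and *Rpl5* (chr5:108332783-108332832, plus strand) matched 8 and 9 other places within 2 mismatches, 4 of them exactly in each case. A copy with 1 mismatch is shown for each, at chr17:46576747-46576796 on the minus strand for *Rpl11* and at chr15:22865654-22865703 on the plus strand for *Rpl5*. Capitals mark the bases at which the copy differs from the gene.
Rpl4: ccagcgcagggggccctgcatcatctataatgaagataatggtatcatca
Rpl4 copy: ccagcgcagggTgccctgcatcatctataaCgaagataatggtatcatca
Rpl11: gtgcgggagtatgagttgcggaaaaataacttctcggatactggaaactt
Rpl11 copy: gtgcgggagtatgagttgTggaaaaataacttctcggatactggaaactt
Rpl5: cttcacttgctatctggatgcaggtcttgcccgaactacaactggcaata
Rpl5 copy: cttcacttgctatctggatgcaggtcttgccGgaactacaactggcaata

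Across the whole coding sequence, 29 of the 82 matched members had no 50-base window that was free of an exact match elsewhere. The median share of unique windows was 9.69% for members and 100% for the 76 mitochondrial ribosomal protein genes matched. Mitochondrial ribosomal proteins form a separate ribosome and serve here as a second set of short nuclear genes.

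TOP tracts were read from the starts annotated by RefSeq (GRCm38.p6), where 63 members had one. A tract was counted on the gene strand as a C within 5 bases of the start followed by at least 4 C or T bases. It was present in 30 of the 63 members (47.6%), in 17 of 68 mitochondrial ribosomal protein genes (25%) and in 21.7% of all genes with a start. Members whose tract was short or whose annotated start lies elsewhere fall outside this count, so the letters alone say nothing of translation. The starts of 4 members are shown, with the tract in capitals, *Fau* at chr19:6057937-6057966 and *Rpl27a* at chr7:109519185-109519214 on the plus strand, and *Rpl15* at chr14:18270967-18270996 and *Rpl35* at chr2:39005112-39005141 on the minus strand.
Fau: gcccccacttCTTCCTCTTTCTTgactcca
Rpl27a: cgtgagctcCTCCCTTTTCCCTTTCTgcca
Rpl15: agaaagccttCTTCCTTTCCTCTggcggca
Rpl35: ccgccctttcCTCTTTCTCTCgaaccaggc

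The first question was how much of each library fell on these genes. Together the 84 members received 165903 counts over the 6 libraries. Their share of all counts was 0.200%, 0.167% and 0.181% in control replicates 1, 2 and 3, and 0.195%, 0.199% and 0.177% in the mutant replicates. The genotypes overlapped, with means of 0.183% ± 0.0164 in controls and 0.190% ± 0.0114 in mutants (SD, n = 3 each). The difference of 0.00782 percentage points was smaller than the pooled SD within genotypes of 0.0141. Control replicate 2 had the lowest share, and without it the difference was 9.7e-05 percentage points.

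**Figure D1:**
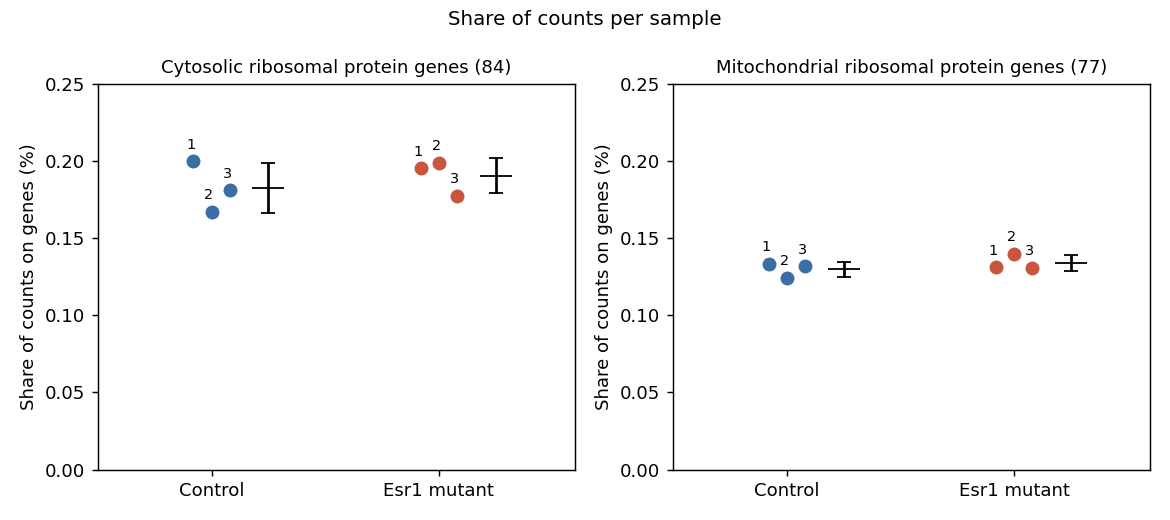
Share of all counts on genes (%) that fell on the 84 cytosolic ribosomal protein genes (left) and on the 77 mitochondrial ribosomal protein genes (right). Numbered points are replicates and bars are the mean ± SD of 3 samples; control and mutant points overlap in both panels, with cytosolic shares between 0.167% and 0.200%.

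The members held more counts than the mitochondrial set and fewer than the translation factors. These are shares of counts and do not rank amounts of mRNA, since the sets differ in unique coding sequence. The median share of unique windows was 9.69% for members and 100% for the mitochondrial set. It was 79.8% for *Rpl4*, 25.4% for *Eef1a1* and 90.5% for *Eef2*, and the part of sequence copies in these shares was not tested. The 77 mitochondrial ribosomal protein genes took between 0.124% and 0.140% of counts, and 36 translation factors between 0.606% and 0.659%. Single elongation factors reached counts close to those of the highest member, with 41318 on *Eef1a1*, which delivers aminoacyl-tRNA, and 45504 on *Eef2*, which moves the ribosome along the mRNA. With the paralogs placed by their symbols, large subunit genes held between 0.1001% and 0.124% of counts and small subunit genes between 0.0670% and 0.0761%. In the shifts and fold changes below, the paralogs are left out of both subunits. The ratio of large to small subunit counts lay between 1.49 and 1.67, and control replicate 2 was lowest.

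Counts were concentrated on few members. *Rpl4*, whose protein lines the peptide exit tunnel, received 43029 counts or 25.9% of all counts on members. *Rps3*, at the mRNA path of the small subunit, received 8.39%, and *Rps15a* received 6.09%. At the other end, 21 members had under 100 counts over the 6 libraries together, and *Rpl10l* had none, where a count of 0 allows up to 3 counts per library.

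Per kilobase of coding sequence, the mean levels of the 69 members that were tested and matched spanned a 385-fold range. Counts were taken over whole exons but divided by coding length alone, so long untranslated parts can raise these levels. The matched transcript of *Rps15a* has 393 coding bases of 3721, and that of *Rpl4* 1260 of 1422. The part of untranslated sequence in the range was not tested. Among the highest were the levels of *Rpl4* (384 CPM per coding kilobase), *Rps15a* (288), *Rps3* (213) and *Rpl32* (154). Among the lowest were those of *Rpl3* (0.996 CPM per coding kilobase), *Rpl10* (1.48), *Rpl28* (1.56) and *Rpl35* (1.82). *Rpl3*, *Rpl5* and *Rpl11* are core proteins of the large subunit, and *Rpl5* and *Rpl11* join 5S rRNA in a particle that also restrains MDM2. They stood at 0.996, 2.12 and 0.774 CPM per coding kilobase, far below *Rpl4*, another core protein of the same subunit.

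Levels were higher in members with more unique coding sequence. The 29 members with no unique window had a median of 2.57 CPM per coding kilobase, the 28 with up to 20% unique windows 9.06, the 10 with over 20% to 50% unique windows 35.9, and the 15 with over 50% unique windows 68.7. These 15 held 58.4% of the members' counts. Spearman's rho between the unique share and the level was 0.42 over the 82 matched members and 0.57 over the 76 that are not paralogs, points that share libraries and differ in transcript length and base composition. The 76 mitochondrial ribosomal protein genes, 71 of them over 50% unique, had a median of 24.4 CPM per coding kilobase against 9.44 for the members.

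**Figure D2:**
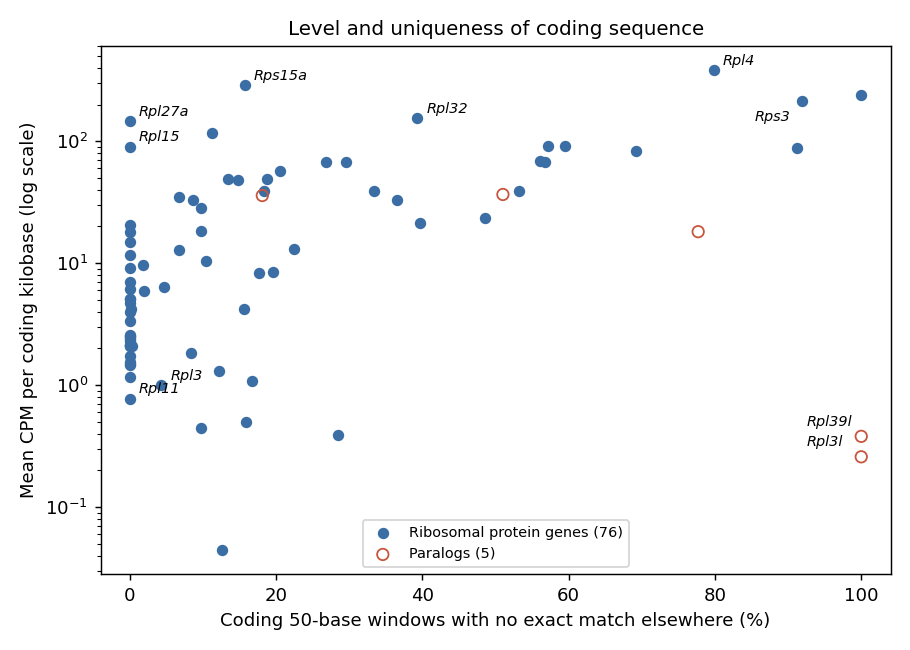
Mean level of each matched member over the 6 samples (CPM per coding kilobase, log axis) against the percentage of its 50-base coding windows without an exact match elsewhere in NCBIM37. Members at 0% reach from 0.774 (*Rpl11*) to 146 (*Rpl27a*), the members over 50% that are not paralogs lie high, *Rpl3l* and *Rpl39l* lie low at 100%, and *Rpl10l*, with no counts, cannot be drawn on a log axis.

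Exceptions were found on both sides. *Rpl27a* and *Rpl15* had no unique coding window and still reached 146 and 89.9 CPM per coding kilobase. Their matched transcripts have 447 coding bases of 1158 and 615 of 1922, and windows outside the coding sequence were not scored. The exons of *Rpl27a* share 132 bases with *Snora3* in the annotation, and those of *Rpl15* share 105 bases with *Nkiras1* on the opposite strand, and use of strand in the counting is not given in the sources used here. Conversely *Rpl3l*, a striated muscle paralog, and *Rpl39l* were unique throughout their coding sequence and had 17 and 5 counts in all. HTSeq with its default settings leaves out reads that match several places, but the settings used are not given, and the part of sequence copies in the levels was not tested. Exon overlaps were larger in other members, low and high. *Rpl5* shares 953 bases with *Fam69a* and *Rpl35* 821 with *Wdr38*, each on the opposite strand. *Rpl13a*, at 90.6 CPM per coding kilobase, shares 1138 bases with *Flt3l* on the same strand. The part of overlaps in the levels was not tested.

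The study names 36b4, *mCyclo* and *Gapdh* as qPCR references, and *mCyclo* was read here as *Ppia*, which the paper does not name. Of these, *Gapdh* and *Ppia* had few counts. *Gapdh*, a glycolytic enzyme with 324 other places in the assembly and no unique window, had between 25 and 41 counts per library. *Ppia*, which encodes cyclophilin A, had between 16 and 36 counts and no unique window. *Rplp0*, the reference known as 36b4, had 39.6% unique windows and between 268 and 378 counts.

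Variation from library to library was described next, as the median over the 71 members tested of log2 CPM minus the 6-sample mean. The median shift was 0.046, -0.102 and 0.012 in control replicates 1, 2 and 3, and 0.022, 0.081 and -0.066 in the mutant replicates. Control replicate 2 and mutant replicate 3 were low and mutant replicate 2 was high, and libraries of both genotypes lay above and below 0. Members above their own 6-sample mean numbered 43, 23 and 39 of 71 in the controls and 40, 47 and 26 in the mutants. Over all genes tested the median shift stayed between 0.004 and 0.015.

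Both subunits had shifts of the same sign in 5 of the 6 libraries. Large subunit genes had shifts of -0.094 in control replicate 2, 0.087 in mutant replicate 2 and -0.066 in mutant replicate 3, and small subunit genes had -0.057, 0.079 and -0.066. In control replicate 3 they parted, at 0.027 for the large and -0.025 for the small subunit. Other short transcripts, the 491 genes tested with under 1000 exon bases, had -0.066 in control replicate 2, 0.088 in mutant replicate 2 and 0.034 in mutant replicate 3. Mitochondrial ribosomal protein genes had -0.029, 0.069 and 0.010 in the same 3 libraries. Both sets were above 0 in mutant replicate 3, where the members were below it, and the part of transcript length was not tested.

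**Figure D3:**
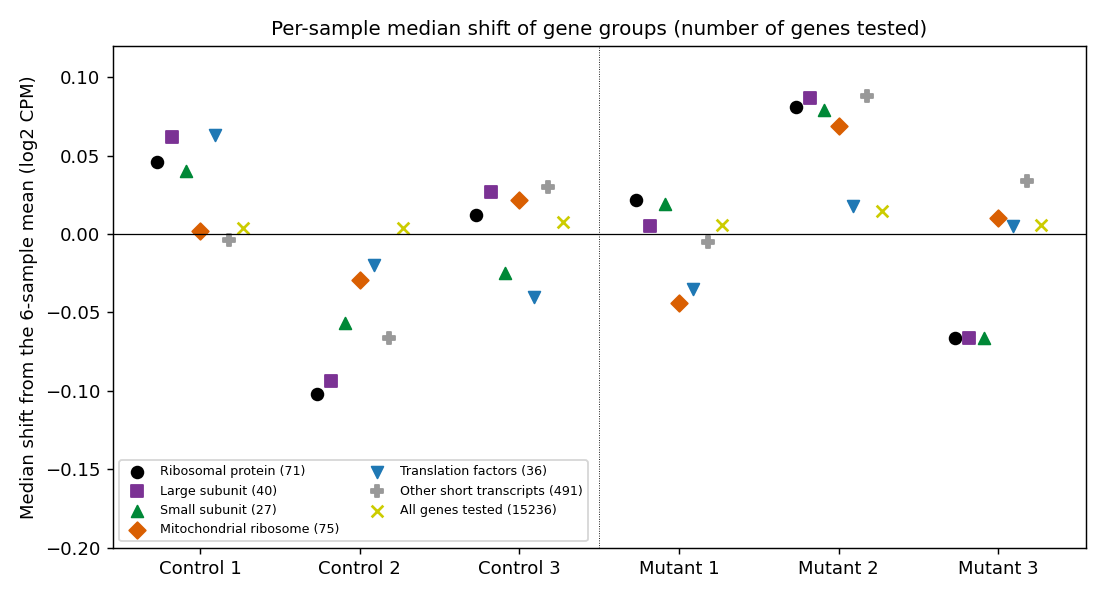
Median shift of gene groups in each sample from the 6-sample mean (log2 CPM), with the number of genes tested in the key. Ribosomal protein genes (black circles) lie lowest in control 2 (-0.102) and highest in mutant 2 (0.081), with samples of both genotypes above and below 0.

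The next question was whether ribosomal protein genes differed between mutant and control ARC. None did by the test. Of the 71 members that passed the filter on low counts, 0 had an adjusted p-value under 0.05 with edgeR's quasi-likelihood test, where 0.118% of the 15236 genes tested did. DESeq2 called 0 of the 67 members it gave an adjusted p-value, against 1.26% of all genes. The smallest adjusted p-value of a member was 0.42 with edgeR and 0.59 with DESeq2. With the replicate numbers of the labels as a block, edgeR called 0.807% of all genes and 0 of the 71 members. The 13 members that did not pass the filter had between 0 and 50 counts over the 6 libraries (*Rpl10l*, *Rpl11*, *Rpl24*, *Rpl26*, *Rpl29*, *Rpl30*, *Rpl34*, *Rpl39l*, *Rpl3l*, *Rps2*, *Rps18*, *Rps28* and *Rps29*).

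Before adjustment, 3 of the 71 members (4.23%) had a p-value under 0.05, against 8.85% of all genes. These were *Rpl3*, lower in the mutants, and *Rpl22* and *Rps4l*, higher. Fold changes above 0 were seen in 41 members (57.7%), against 51% of all genes, and the median log2 fold change was 0.0133 for members and 0.0036 for all genes. The median was 0.0091 for the large subunit (0 of 40 called) and 0.0272 for the small subunit (0 of 27 called). Genotypes without overlap were found for 3 members higher in the mutants (*Rpl7*, *Rplp1* and *Rps4l*) and for 3 lower (*Rpl3*, *Rps19* and *Rpl35a*), where 7.88% of all genes separated in each direction. Each of these shares lies near or under that of all genes.

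The precision of these comparisons followed depth. The 5 members with a mean of over 1000 counts per library had a median standard error of 0.089. Their 95% intervals lay between -0.28 and 0.21 on the log2 scale. For the 34 members with a mean of over 100 to 1000 counts the median standard error was 0.14. It was 0.33 for the 28 with a mean of over 10 to 100, and 0.52 for the 4 tested members with a mean of 10 or fewer. The interval lay within -0.5 and 0.5 for 30 of the 71 members and within -1 and 1 for 57. For the remaining 14 the interval included a change of 1 on the log2 scale in at least 1 direction.

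**Figure D4:**
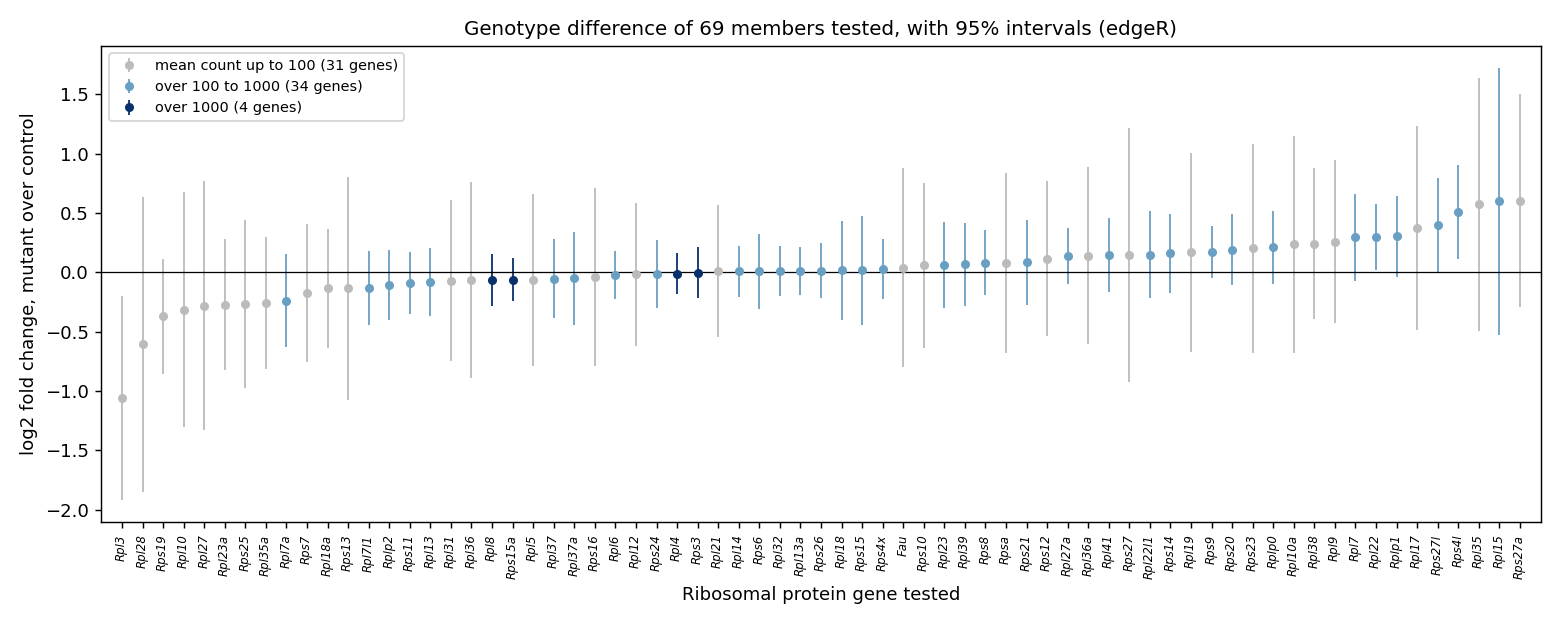
Log2 fold change, mutant over control, of 69 members tested, in order of size, with 95% intervals from edgeR and colour by mean count per library. Deeply counted members such as *Rpl4* and *Rps3* sit near 0 with short intervals, and *Rpl3*, the lowest at -1.06, has a mean count up to 100.

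The abundant members had fold changes near 0. *Rpl4* measured 511, 456 and 490 CPM in control libraries and 491, 488 and 468 CPM in mutant libraries (log2 fold change -0.010, SE 0.079, 95% interval -0.19 to 0.17). *Rps3*, which lines the mRNA entry channel, measured 177, 151 and 141 CPM in control libraries and 155, 165 and 148 CPM in mutant libraries (log2 fold change -0.0043). The values of both genes interleave between genotypes. *Rps15a* and *Rpl8* both had log2 fold changes of -0.063.

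At middle depth, spreads differed between members. *Rpl6*, a large subunit protein, measured 31.96, 30.4 and 31.1 CPM in control libraries and 30.1, 30.3 and 31.4 CPM in mutant libraries (log2 fold change -0.025, SE 0.091), with the SD within genotypes at 0.035 on the log2 scale. *Rps9*, which helps to hold the mRNA entry channel, measured 40.4, 33.9 and 36.3 CPM against 43.3, 41.2 and 39.97 CPM, and the genotypes overlapped (log2 fold change 0.17, SE 0.099). *Rpl41*, which encodes a very short peptide and was not matched in the annotation, measured 24.99, 18.7 and 26.5 CPM against 26.1, 27.3 and 24.1 CPM (log2 fold change 0.15, SE 0.14), with control replicate 2 the lowest.

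Of the members at the ends of the order, *Rpl3*, which lies close to the peptidyl transferase centre, had few counts. It received 25, 22 and 27 counts in the controls and 12, 9 and 12 in the mutants, and only 4.3% of its coding windows were unique. Every mutant value lay below every control value, but the gene did not pass the test across all genes (log2 fold change -1.06, SE 0.39, edgeR adjusted p = 0.44). *Rps4l*, which is named for its likeness to *Rps4x*, measured 5.23, 5.35 and 6.53 CPM in control libraries and 7.34, 8.23 and 8.66 CPM in mutant libraries (log2 fold change 0.51, SE 0.18, edgeR adjusted p = 0.42). *Rps4l* was not matched in the annotation used here, so its uniqueness was not analysed. *Rpl22*, an RNA-binding protein of the large subunit, measured 31.1, 26.1 and 29.8 CPM in control libraries and 40.3, 36.1 and 30.4 CPM in mutant libraries, where the lowest mutant value lay under the highest control value (log2 fold change 0.30, SE 0.12, edgeR adjusted p = 0.53).

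Others among the highest fold changes were those of *Rps27a* (log2 fold change 0.60), *Rpl15* (0.60) and *Rpl35* (0.57), and the other lowest were those of *Rpl28* (-0.61), *Rps19* (-0.37), *Rpl10* (-0.32) and *Rpl27* (-0.28). Their edgeR adjusted p-values lay above 0.05 without exception. *Rpl35* had 12, 8 and 5 counts in controls and 9, 11 and 15 in mutants, and *Rpl28* had 5, 16 and 15 against 5, 6 and 11. Counts of this size overlap between genotypes in both genes.

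*Rpl15* stood apart from other well-counted members by its spread. Its protein is needed for maturation of the large subunit, and its level was 72.8, 27.2 and 31.99 CPM in control libraries and 71.2, 77.2 and 51.2 CPM in mutant libraries. Control replicate 1 lay with the mutants and the other 2 controls lay below all of them, a 2.68-fold range within 1 genotype. The SD of log2 CPM within genotypes was 0.58 for *Rpl15* and 0.63 for *Rpl28*, among the largest of the members tested, where the median was 0.22. *Nkiras1*, the antisense neighbour, had 770, 926 and 659 counts in controls and 617, 807 and 658 in mutants and did not follow this order.

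**Figure D5:**
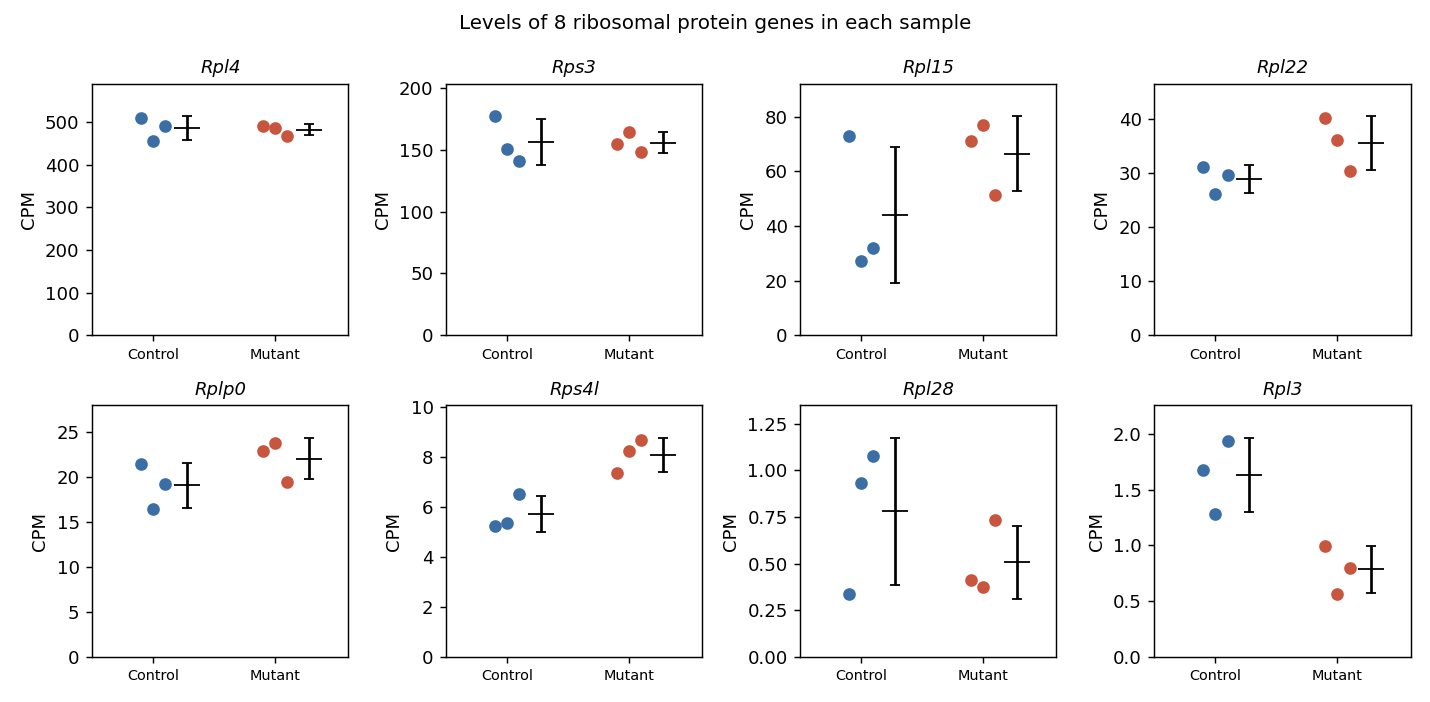
CPM of 8 members in each of 3 control (blue) and 3 mutant (red) samples, with the mean ± SD beside the points and each axis starting at 0. *Rpl4* and *Rps3* overlap closely, *Rpl15* has 1 control at the level of the mutants and 2 far lower, and *Rps4l* and *Rpl3* separate by genotype without passing the test across all genes.

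By role, the stalk proteins that recruit translation factors had fold changes on both sides of 0. *Rplp1* measured 8.91, 10.8 and 10.97 CPM in control libraries and 11.3, 13.7 and 12.7 CPM in mutant libraries (log2 fold change 0.30, edgeR adjusted p = 0.60), while its partner *Rplp2* had a log2 fold change of -0.11. *Rplp0*, which anchors both, measured 21.5, 16.5 and 19.2 CPM in control libraries and 22.9, 23.7 and 19.5 CPM in mutant libraries (log2 fold change 0.21, SE 0.14, 95% interval -0.10 to 0.52, edgeR adjusted p = 0.71). *Rpl12*, at the base of the stalk, had a log2 fold change of -0.018. The other references, *Gapdh* and *Ppia* (as *mCyclo* was read here), had 0.32 (SE 0.27) and -0.37 (SE 0.34).

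Of the 8 proteins around the exit tunnel (*Rpl4*, *Rpl17*, *Rpl19*, *Rpl23a*, *Rpl26*, *Rpl31*, *Rpl35* and *Rpl39*), 7 were tested and 0 called, with a median log2 fold change of 0.070. Of the 8 along the mRNA path of the small subunit (among them *Rps2*, *Rps3*, *Rps14*, *Rps15*, *Rps23*, *Rps26* and *Rps28*), 6 were tested and 0 called, with a median of 0.015. *Rps15* varied most among the well-counted ones, with 41.3, 51.2 and 27.3 CPM in controls against 39.3, 41.8 and 40.4 CPM in mutants.

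The particle of *Rpl5* and *Rpl11* had low counts. *Rpl5* had 27, 33 and 29 counts in controls and 28, 32 and 19 in mutants, a log2 fold change of -0.062. *Rpl11* had 12, 7 and 8 counts in controls and 0, 6 and 5 in mutants, and it did not pass the filter. Neither gene had a unique coding window, and the exons of *Rpl5* overlap those of *Fam69a* on the opposite strand. *Rps27a* and *Fau*, made as fusions to ubiquitin or a ubiquitin-like protein, had log2 fold changes of 0.60 and 0.039 on 107 and 142 counts in total.

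Among single members often studied on their own, *Rps6*, the substrate of S6 kinase, measured 12.7, 13.4 and 14.3 CPM in control libraries and 15.3, 13.4 and 11.9 CPM in mutant libraries (log2 fold change 0.010). *Rpsa*, also known as the laminin receptor, measured 4.89, 3.03 and 3.01 CPM in control libraries and 5.86, 3.14 and 2.66 CPM in mutant libraries, so 1 library of each genotype was high. *Rpl38*, which is needed for translation of some *Hox* mRNAs, had a log2 fold change of 0.24, *Rpl10a* of 0.23 and *Rps27*, a zinc finger protein, of 0.15. The X-linked members *Rps4x*, *Rpl39*, *Rpl36a* and *Rpl10* had log2 fold changes of 0.027, 0.070, 0.14 and -0.32, and 0 of 4 were called.

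Of the 7 paralogs, 4 were tested and 0 called. *Rps27l*, a relative of *Rps27* that p53 can induce, measured 9.11, 7.68 and 7.39 CPM in control libraries and 11.1, 12.1 and 8.59 CPM in mutant libraries, with 1 mutant value under the highest control (log2 fold change 0.39, SE 0.18, edgeR adjusted p = 0.56). *Rpl22l1*, which can replace *Rpl22*, and *Rpl7l1* had log2 fold changes of 0.15 and -0.13. *Rpl10l*, a testis paralog, was at 0 in every library, and *Rpl39l* had at most 2 counts in any.

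In the gene sets around the ribosome, no gene passed the test, where 0.118% of the 15236 genes tested did. At that share, lists of this size would hold few or no called genes. A count of 0 called therefore says little of these sets, or of the smaller lists of members above. Of 75 mitochondrial ribosomal protein genes tested, 0 passed the test in either direction, and their median log2 fold change was 0.032. The ends of that list were *Mrps18a* (0.38) and *Mrps18b* (0.36), and *Mrpl21* (-0.36) and *Mrpl52* (-0.25). Of 36 translation factors 0 passed, with a median of -3e-04, and the ends were *Eif1ax* (0.31) and *Eif6* (0.21), and *Eef1a2* (-0.15) and *Eif4g1* (-0.13).

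Ribosome assembly factors were 0 of 30 called, with a median log2 fold change of 0.0091. *Nhp2* (0.50) and *Rrs1* (0.32) were highest, and *Nop56* (-0.29) and *Nop58* (-0.19), both of the box C/D particles that guide rRNA methylation, were lowest. *Nop56* measured 39.3, 43.7 and 36.1 CPM in control libraries and 31.5, 32.6 and 33.5 CPM in mutant libraries, values that did not overlap, with an edgeR adjusted p of 0.42. Of 14 regulators of TOP mRNAs in and around the mTOR pathway, 0 were called and 11 had a fold change under 0. Of all 15236 genes tested, 7473 had a fold change under 0. The ends of the regulators were *Myc* (0.13) and *Rheb* (0.0042), and *Mlst8* (-0.19) and *Rptor* (-0.14). Of 20 other genes listed as TOP mRNAs, 0 were called, with *Hnrnpa1* (0.30) and *Eef1b2* (0.13) highest and *Eef1g* (-0.082) among the lowest. In this list 15 genes had a fold change above 0, against 51% of all genes. The directions in these lists were not tested. The 4 pseudogene symbols tested, such as those derived from *Rpl* and *Rps* genes, had 0 called. Of the genes of these families that the rule left out, *Rps3a1* measured 0.21 on the log2 scale (SE 0.098, edgeR adjusted p = 0.57) and *Rpl36al* -0.10.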

How the data were processed

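Arcuate RNA of 6 females was amplified with the Ovation RNA-Seq System and sequenced as single-end 50-base reads. The authors mapped the reads with TopHat2 (2.1.0) and counted them with HTSeq (0.6), versions from the submitters' processing notes, and deposited raw counts per gene symbol, unnormalized. The notes name mm9, the methods join the name NCBI37 with that of another build, and the counts carry no coordinates. Positions come from GENCODE vM1 (NCBIM37) by symbol, which matched 82 of 84 members, and starts from RefSeq (GRCm38.p6).

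Genotypes were compared with edgeR (4.0.16, R 4.3.3), with TMM scaling, the default filter on low counts, a robust quasi-likelihood test and Benjamini-Hochberg adjustment over the 15236 genes tested, at a threshold of 0.05. Standard errors were derived from the F statistic. CPM were scaled by TMM, with a pseudocount of 0.1 before log2 in the per-sample shifts. A two-sided exact permutation test cannot go below 0.1 at this number of samples, so shares and medians got no test. Alternatives were DESeq2 (1.42.0, the tool of the study), limma voom (3.58.1), RLE scaling, other count filters, the replicate block and each library left out. Coding windows were placed on the assembly with bwa (0.7.19-r1273). Chi-square per degree of freedom between replicates was 6.90 to 21.5, so none was a duplicate. The tests were tested on simulated data, where each tool missed most of the genes given the smallest change and its share of false calls exceeded the threshold.

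Members and gene lists were chosen with earlier results of these data known. Named genes are the ends of the fold changes and levels, the 3 most variable members, the members of the structural lists and paralogs, members studied on their own, the qPCR references, *Esr1*, and the ends of the other lists. *Rpl6*, *Rpl7*, *Rpl13a*, *Rpl35a*, *Rpl41*, *Rps9*, *Rpl8*, *Rps15a*, *Rpl27a*, *Nkiras1*, *Rps3a1*, *Rpl36al*, *Eef1a1* and *Eef2* were added after their values were seen. Results on some genes are not reported here.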

Additional observations from a re-analysis of the deposited data

How the results depend on the processing

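No ribosomal protein gene passed the threshold under any alternative run, with RLE scaling, with DESeq2, with limma voom, among genes that had 1 count somewhere or 10 counts everywhere, with the replicate block, or with each library left out in turn (0 to 0 members). The number of all genes past the threshold was 18, and 191 with DESeq2, 106 among genes that had 1 count somewhere, 123 with the replicate block and from 7 (without mutant replicate 3) to 46 (without control replicate 2) with 1 library left out. Same-numbered libraries correlated in their deviations at 0.28, 0.046 and -0.0061, and differently numbered ones at -0.26 to 0.21. The labels name no pairing, so the numbers were not taken to pair the samples. The members' median log2 fold change lay between -0.016 (without mutant replicate 2) and 0.049 (without control replicate 1), and was 0.11 over the 25 tested members with no unique coding window, an alternative chosen after seeing the data, as were the members over 50% unique and the members without *Rpl15*. The cause was not tested. The difference in share lay between 9.7e-05 and 0.016 percentage points with 1 library left out, and the mutant minus control difference of the per-sample shifts, 0.027, lay between -0.014 and 0.055. For this difference and its range, log2 CPM were those of edgeR with its default offset in place of the pseudocount of 0.1. The filter on low counts was applied anew to the libraries kept. Of the fold changes of 60 named genes, 15 crossed 0 in at least 1 alternative. With 1 library left out, they ranged from -0.14 to 0.069 for *Rpl12*, -0.055 to 0.026 for *Rpl4*, -0.073 to 0.093 for *Rps3*, -0.14 to 0.0035 for *Rpl8*, -0.085 to 0.095 for *Rps6*, -0.20 to 0.32 for *Fau*, -0.083 to 0.50 for *Rps27*, -0.21 to 0.0061 for *Rpl36al*, -0.33 to 0.35 for *Rpsa*, -0.018 to 0.12 for *Rps4x*, -0.081 to 0.19 for *Rpl39*, -0.027 to 0.036 for *Rheb*, -0.027 to 0.35 for *Rpl36a*, -0.24 to 0.15 for *Rpl5* and -0.033 to 0.32 for *Myc*. *Rheb* was at -0.0031 with DESeq2 and -0.0076 with a minimum of 1 count, *Rps6* at -0.0018 with limma voom and -0.0016 with a minimum of 1 count, and *Rps3* at 0.0010 with limma voom, 0.00048 with a minimum of 10 counts and 0.0012 with the replicate block. Depth limits the members with a mean under 100 counts per library most, and counts of members with copies elsewhere in the genome are uncertain.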
